A study of Homo sapiens with 35 samples.

Results

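The 10 transcripts described here encode amino acid transporters: SLC7A11, SLC3A2, SLC1A5, SLC7A1, SLC6A9, SLC7A5, SLC38A1, SLC38A2, SLC1A4 and SLC43A1. They were taken by symbol from the 19665 protein-coding entries of the count table, and each symbol had 1 such entry. The study had already placed SLC7A11, SLC3A2, SLC1A5, SLC7A1 and SLC6A9 in the same cluster of similar time courses. That cluster was built from these same data, so shared movement of these members was known beforehand. RNA sequencing was carried out on the established multiple myeloma line RPMI-8226 after exposure for 1 h to 750 nM of the proteasome inhibitor carfilzomib. RNA was collected on days 0, 1, 2, 4, 6, 8 and 10, with 5 libraries per day and 35 in all. Every library carries the carfilzomib treatment in its label, day 0 included, whereas the methods of the study place the day 0 collection before the drug was added, so day 0 is used as the baseline. No untreated culture was followed in parallel over the later days in these libraries. The 5 replicates of a day were subcultures split from a common expanded culture, while a legend of the study speaks of independent experiments, so whether the replicates are independent was not settled here.

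The culture was handled along the way. Cells were fed every 48 h and brought back to a set density at the day 6 and day 8 time points. The libraries of days 8 and 10 therefore come after such a step, and time since the pulse cannot be told apart from these steps. Per the study's methods, day 0 cells were sampled after a change to fresh medium and day 1 cells 1 day after fresh medium. Cells of the later days were sampled just before a medium change. Time in the same medium thus also differed between day 0, day 1 and the later days, and its part in the results was not tested. Total counts per library ran from 6519392 to 10962890 with a median of 7643975, and protein-coding entries held 78.1% to 84.9% of them. Of the 10 plasma cell markers examined, every one was present on day 0, from a mean of 23.9 CPM (counts per 1000000 protein-coding counts, with library sizes scaled by TMM factors) for SLAMF7 to 4757 CPM for JCHAIN. The summed level of these markers was 6623 to 7534 CPM on day 0, 2931 to 3270 CPM on day 1 and 7491 to 8831 CPM on day 10. By edgeR, 6 of the 10 were lower and 1 higher on day 1, against 27.3% and 25.4% of all entries tested. The part of this movement in the results on the transporters was not tested. Markers of other lineages summed to 8.97 to 27.5 CPM over the 35 libraries. The B cell gene MS4A1 was the highest of them on day 0, at a mean of 9.42 CPM, and reached 108 counts in a library. PECAM1, PAX5 and CD3E reached 56, 34 and 32 counts, whereas CD3D and HBB never exceeded 3 counts. On day 1, 4 of these 10 other-lineage markers were lower and 0 were higher by edgeR (1 at an unadjusted P under 0.05, and 1 by DESeq2). The same shares of all entries, 27.3% lower and 25.4% higher, apply here.

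Amino acid transporters of the plasma membrane set what a cell can take up for protein synthesis, glutathione and carbon metabolism. Several of them work in pairs or as exchangers: SLC7A11 imports cystine in return for glutamate, SLC7A5 imports large neutral amino acids such as leucine in return for glutamine, and both need SLC3A2, a heavy chain that brings them to the cell surface. Many of these genes are known targets of the transcription factor ATF4, whose translation rises when amino acids run short or proteins misfold. Plasma cells and myeloma cells secrete large amounts of immunoglobulin and so depend heavily on this supply.

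Stretches of 30 bases around 3 known regulatory motifs are shown so that the promoters of members that fell can be set beside that of SLC1A4, which followed another course. They come from the RefSeq promoter table of build GRCh38.p14, in which a window runs from 250 bases before to 50 bases after a start site. Of the 10 members, 9 had windows, 16 windows in all, and SLC7A11 had none in the table. Sequences are written 5′ to 3′ along the gene's strand, and capitals mark the motif on either strand. The core of the C/EBP-ATF response element, searched as TGATGNAA, was found in the promoters of SLC1A4 (chr2:64989381-64989410, plus strand), SLC3A2 (chr11:62881719-62881748, plus strand), SLC38A1 (chr12:46266502-46266531, minus strand), SLC7A1 (chr13:29595663-29595692, minus strand) and SLC1A5 (chr19:46784893-46784922, minus strand).
SLC1A4: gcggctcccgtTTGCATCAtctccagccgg
SLC3A2: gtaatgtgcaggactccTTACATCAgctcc
SLC38A1: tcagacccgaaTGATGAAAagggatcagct
SLC7A1: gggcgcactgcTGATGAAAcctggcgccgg
SLC1A5: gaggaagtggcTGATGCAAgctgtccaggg

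That motif was in 5 of the 16 member windows (31.3%) and in 5 of the 9 genes (55.6%), against 3.62% of all 35116 windows and 4.46% of all 27305 genes in the table. SLC1A4, whose transcript differed from day 0 on day 8 alone, held it, as did SLC7A1, SLC3A2, SLC38A1 and SLC1A5, which fell. The windows of SLC6A9, SLC43A1 and SLC7A5, which also fell, and of SLC38A2 held no match. Whether the motif bears on these courses was not tested. The antioxidant response element, searched as TGACNNNGC, was in 4 windows (25%) and 4 genes (44.4%), against 13.3% of all windows and 16.1% of all genes. It is shown for SLC3A2 (chr11:62881652-62881681, plus strand), SLC7A1 (chr13:29595754-29595783, minus strand), SLC7A5 (chr16:87869490-87869519, minus strand) and SLC1A5 (chr19:46787385-46787414, minus strand).
SLC3A2: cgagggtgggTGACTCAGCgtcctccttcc
SLC7A1: tgcccggcggTGACGCGGCcgagcgggccg
SLC7A5: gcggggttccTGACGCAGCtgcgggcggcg
SLC1A5: cctggatcttGCGAGGTCAgctcccgctcc

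The E-box CACGTG was in 3 windows (18.8%) and 3 genes (33.3%), against 7.26% of all windows and 8.77% of all genes. It lay in windows of SLC43A1 (chr11:57515797-57515826), SLC7A5 (chr16:87869620-87869649) and SLC1A5 (chr19:46787326-46787355), all on the minus strand. None of the matched stretches overlapped another. SLC1A5 held all 3 motifs, but its TGATGNAA match lay in the window of a different start site from its other matches. These matches describe letters in the windows, with no measure of binding in these data.
SLC43A1: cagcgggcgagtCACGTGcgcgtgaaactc
SLC7A5: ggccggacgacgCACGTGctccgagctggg
SLC1A5: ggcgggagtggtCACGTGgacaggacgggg

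After the pulse, 8 of the 10 transporter transcripts fell by day 1 and were still below day 0 on day 10. SLC6A9 and SLC7A11 fell furthest, to 8.20% and 9.13% of their day 0 level on day 2. SLC38A2 went the other way and stood 1.57-fold above day 0 on day 10, whereas SLC1A4 stayed near its day 0 level on every day but day 8. The course had 2 low points: levels climbed back from day 2 to day 6, dropped again by day 8, and rose by day 10. In bulk RNA, fewer cells holding a transcript and less of it per cell cannot be told apart.

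Calls were made with edgeR's quasi-likelihood test on 17999 protein-coding entries with a count, at an adjusted P (Q) of at most 0.05. Against day 0, 8, 9, 8, 8, 9 and 8 of the 10 members were lower on day 1, day 2, day 4, day 6, day 8 and day 10. Among all entries tested, 27.3%, 24.4%, 20.1%, 17.0%, 18.6% and 15.8% were lower in the same comparisons. The member higher than day 0 was SLC38A2 on days 1, 4, 6, 8 and 10 and no member on day 2, against 25.4%, 23.2%, 19.0%, 17.5%, 18.2% and 16.1% of all entries in the 6 comparisons. With a log2 fold change below -1 required as well, the members lower numbered 5, 7, 5, 2, 5 and 0, against 13.2%, 8.94%, 5.29%, 3.52%, 4.58% and 3.52% of all entries. These 6 comparisons share the same day 0 libraries. The members' median log2 fold change followed the same order of days at -1.12, -1.47, -1.13, -0.68, -1.03 and -0.31, while that of the 12301 entries with enough counts lay within 0.01 of 0 on each of these days.

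**Figure D1:**
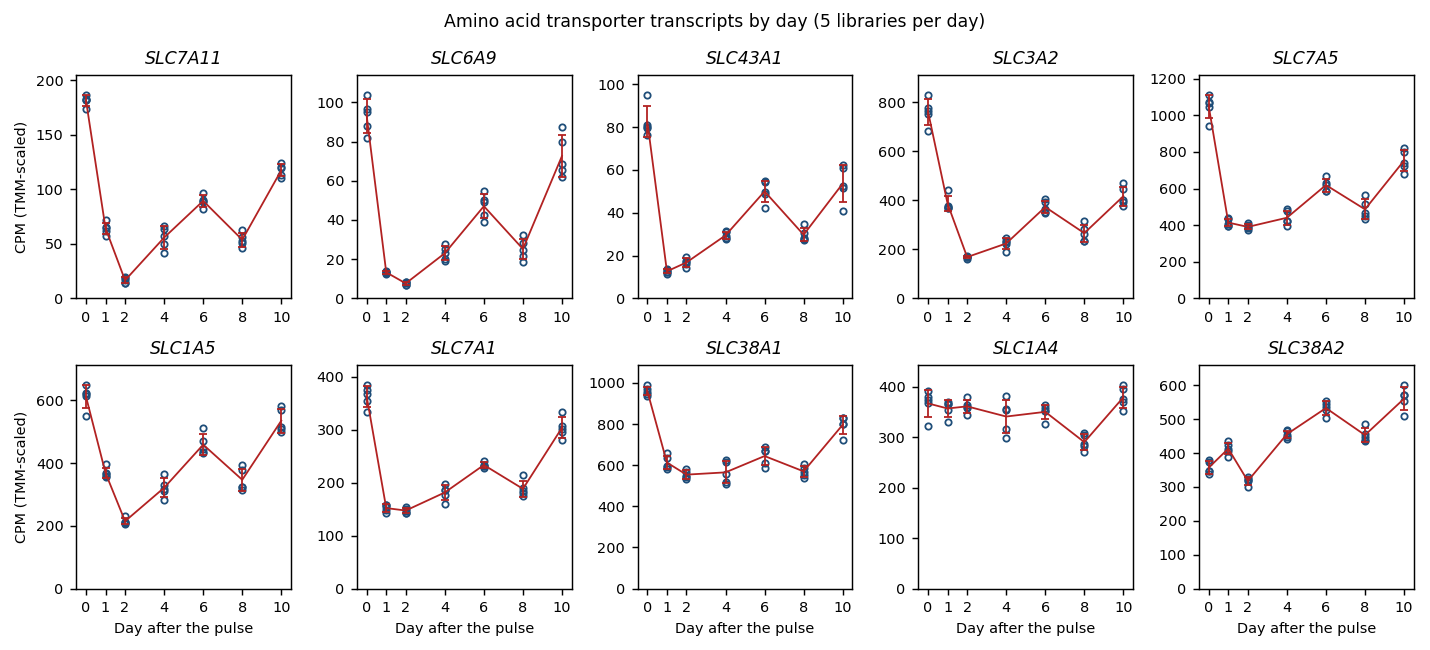
Level of each transporter transcript in CPM, scaled by TMM factors (vertical axis, from 0), by day after the carfilzomib pulse (horizontal axis). Circles are the 5 libraries of a day, the line joins the day means and bars show the SD. SLC7A11 and SLC6A9 reach their lowest level on day 2, while SLC1A4 stays between 270.3 and 404 CPM and SLC38A2 ends above its day 0 level.

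SLC7A11 is the transport subunit of the cystine-glutamate exchanger, which feeds glutathione synthesis, and lies at chr4:138164097-138242349 on the minus strand (GRCh38). Its day 0 libraries held 182, 182, 183, 174 and 187 CPM, in the order of replicates 1 to 5 that is kept throughout. On day 2 they held 14.2, 13.7, 16.4, 18.8 and 19.7 CPM, every one far below the lowest day 0 library, a log2 fold change of -3.47 (SE 0.10) with edgeR Q = 7.17e-29. The means in between were 64.3 ± 5.22 CPM on day 1 and 55.8 ± 10.3 CPM on day 4 (SD, n = 5). From day 1 to day 2, when SLC7A5 and SLC7A1 were already near their lowest level, SLC7A11 dropped a further 3.91-fold. By day 10 the libraries held 119.8, 113, 121, 110.0 and 124 CPM, with no overlap with day 0, a log2 fold change of -0.63 (SE 0.08) and Q = 2.62e-08. Ordered by level, the days ran 0, 10, 6, 1, 4, 8 and 2. The neighbours that the test did not tell apart were days 1 and 4 (Q = 0.0538) and days 4 and 8 (Q = 0.870).

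SLC3A2 (chr11:62856004-62888880, plus strand), the heavy chain shared by several light chains, fell in 2 steps. Its libraries held 829.9, 775, 683, 765 and 751 CPM on day 0. On day 1 they held 374, 379, 368, 441 and 368 CPM, with replicate 4 above the others. On day 2 they held 172, 170.3, 168, 162 and 169.6 CPM and lay wholly below day 1. The log2 fold change against day 0 was -0.98 (SE 0.071) on day 1 and -2.18 (SE 0.075) on day 2, with edgeR Q = 1.74e-15 and 6.25e-26. Of the 8 members that were lower on day 10, SLC3A2 was the furthest from day 0 on the log2 scale, at -0.87 (SE 0.071). Day 10 replicates held 469, 445, 400.4, 391 and 378 CPM, all below the lowest day 0 library. Its days ran 0, 10, 1, 6, 8, 4 and 2, and days 10 and 1 (Q = 0.212) and days 1 and 6 (Q = 0.593) were not told apart.

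SLC7A5 (chr16:87830023-87869507, minus strand) carries leucine and other large neutral amino acids and is the other light chain among the members that pairs with SLC3A2. It fell fully within the first day: 1112, 1067, 944, 1072 and 1048 CPM on day 0 became 395, 432, 408, 438 and 397 CPM on day 1. Day 2 brought 398, 409.5, 382, 374 and 387 CPM, which overlapped with day 1 (log2 difference -0.08 (SE 0.064), edgeR Q = 0.328). The log2 fold change against day 0 was -1.34 (SE 0.064) on day 1, -1.25 (SE 0.064) on day 4 and -0.48 (SE 0.063) on day 10, the last with Q = 4.88e-08. Its order of days was 0, 10, 6, 8, 4, 1 and 2, and the neighbours from day 8 down to day 2 were not told apart, with Q between 0.233 and 0.328. Further apart in that order, day 8 did lie above day 2 (edgeR Q = 7.02e-05). Reads of its pseudogene SLC7A5P2 were scarce, at 0 to 6 counts per library.

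Ratios between members within a library do not depend on the scaling factor, and they show that the shared heavy chain and its partners did not fall by the same amount. The log2 ratio of SLC7A11 to SLC3A2 changed by -0.52 on day 1 and by -1.28 on day 2 (exact permutation test, q = 0.00992 for each), so the exchanger's transport subunit fell 2.44-fold more than its heavy chain by day 2. It was back near its day 0 value on day 4 (0.05) and day 6 (0.01), lay at -0.24 on day 8 (exact permutation q = 0.0824) and was higher by 0.24 on day 10 (exact permutation q = 0.0381). The ratio of SLC7A5 to SLC3A2 went down by 0.36 log2 units on day 1 and was then higher than on day 0 on every later day, by 0.75 on day 2 and then by 0.51, 0.27, 0.41 and 0.39 (exact permutation q = 0.00992 each). SLC7A5 to SLC7A11 was 4.09-fold higher on day 2, with a log2 difference of 2.03, and was also higher on days 4, 6 and 8. With 5 libraries against 5 the smallest two-sided p is 0.00794, and 30 tests were adjusted together over 5 ratios and 6 days.

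**Figure D2:**
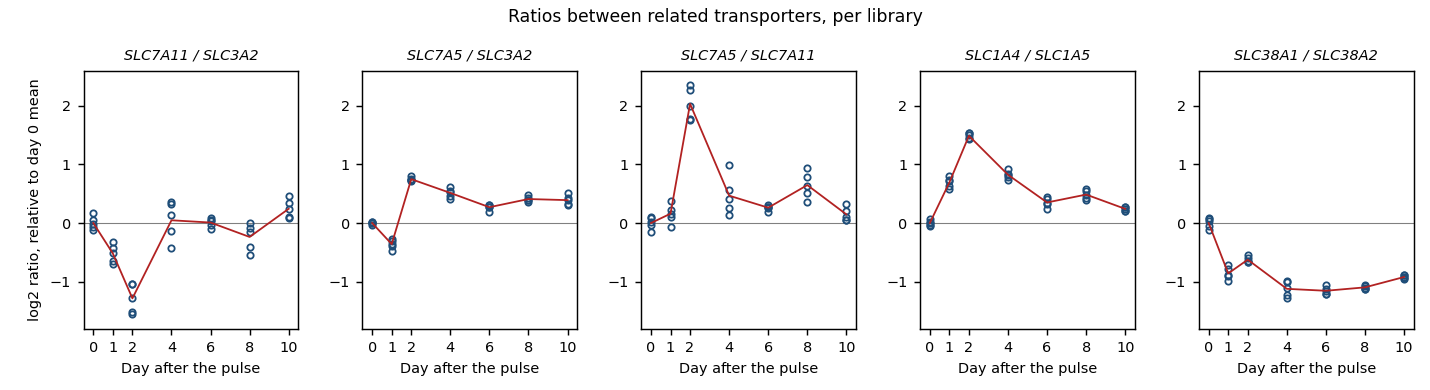
Log2 ratio between related transporters in each library, minus the day 0 mean (vertical axis), by day after the pulse (horizontal axis). Circles are libraries, 5 per day, and lines join the day means; the ratio of SLC7A11 to SLC3A2 is at its lowest on day 2, and that of SLC1A4 to SLC1A5 at its highest.

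SLC6A9, the glycine transporter GLYT1, lies at chr1:43991500-44031467 on the minus strand. Its libraries held 104, 95.1, 81.7, 96.8 and 88.0 CPM on day 0 and 13.7, 12.9, 14.1, 13.5 and 12.2 CPM on day 1. They then held 6.89, 6.65, 8.56, 8.17 and 7.87 CPM on day 2, the lowest level of any day, 12.2-fold below day 0. The log2 fold change was -2.81 (SE 0.12) on day 1 and -3.61 (SE 0.13) on day 2, with edgeR Q = 1.76e-25 for the latter. This was the widest swing of the members: from day 2 to day 6 SLC6A9 climbed 6.15-fold to 47.0 ± 6.25 CPM, fell to 25.2 ± 5.28 CPM on day 8 and reached 87.2, 80.0, 68.3, 65.6 and 62.1 CPM on day 10. Replicate 1 of day 10 exceeded the lowest day 0 library, so these groups overlapped, with a log2 fold change of -0.36 (SE 0.10) and Q = 0.00457. Of its neighbouring days in the order 0, 10, 6, 8, 4, 1 and 2, days 8 and 4 were not told apart (Q = 0.655).

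SLC43A1 (chr11:57484534-57515780, minus strand), a carrier of branched-chain and other large neutral amino acids, fell nearly as far as SLC6A9 by day 1 but turned earlier. Day 0 gave 95.1, 80.9, 79.7, 76.4 and 80.3 CPM, with replicate 1 apart from the rest. Day 1 gave 13.4, 11.5, 12.4, 13.7 and 12.2 CPM, a log2 fold change of -2.71 (SE 0.10) with edgeR Q = 9.30e-25. On day 2 the libraries already stood higher, at 19.4, 17.5, 16.8, 16.2 and 14.0 CPM, the 5 of them above all 5 of day 1 (log2 difference 0.41 (SE 0.11), Q = 0.00307). It was the member that rose between days 1 and 2. On day 10 the libraries held 62.1, 61.1, 51.7, 52.3 and 40.9 CPM. Days 10 and 6 (Q = 0.564) and days 8 and 4 (Q = 1.00) were not told apart in its order 0, 10, 6, 8, 4, 2 and 1.

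SLC1A5 (chr19:46774883-46788594, minus strand), the main glutamine and neutral amino acid exchanger ASCT2, held 649, 615, 551, 623 and 619 CPM on day 0. It fell to 365, 354, 367, 396 and 358 CPM on day 1 and to 212, 232, 209, 214 and 207 CPM on day 2, a log2 fold change of -1.51 (SE 0.065) with edgeR Q = 1.06e-22. Day 10 brought it to 569.7, 582, 516, 499.9 and 509 CPM, and the 2 highest of these libraries passed the lowest of day 0. The difference from day 0 was then -0.19 (SE 0.063) on the log2 scale (Q = 0.0151), and without day 0 replicate 1, day 10 replicate 4 or day 10 replicate 5 it was -0.16, -0.17 or -0.16 and no longer passed the test. Days 1 and 8 (Q = 0.281) and days 8 and 4 (Q = 0.430) were the neighbours not told apart in the order 0, 10, 6, 1, 8, 4 and 2.

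SLC1A4 (chr2:64988477-65023865, plus strand), the related transporter of alanine, serine and cysteine known as ASCT1, followed another course. Its libraries held 375, 368, 322, 379.6 and 392 CPM on day 0 and 359, 381, 364, 345 and 359 CPM on day 2, the time at which SLC1A5 was lowest. Day 8 was the exception, with 270.3, 309, 286, 283 and 305 CPM, a log2 fold change of -0.34 (SE 0.056) and edgeR Q = 3.96e-06. On the other days the log2 fold change lay between -0.11 on day 4 and 0.05 on day 10, with 95% intervals of -0.22 to 0.00 and -0.06 to 0.16. Its sign on days 1, 2 and 4 turned when library sizes were used without scaling factors. The ratio of SLC1A4 to SLC1A5 was higher than on day 0 on each later day, by 0.69, 1.49, 0.82, 0.35, 0.49 and 0.24 log2 units in order of day (exact permutation q = 0.00992 each).

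SLC7A1 (chr13:29509414-29595688, minus strand), the CAT1 carrier of arginine and lysine, had the course closest to that of SLC7A5. Day 0 libraries held 384, 367, 333, 375 and 353 CPM. Day 1 libraries held 153, 142, 158, 158 and 148 CPM and day 2 libraries 142, 147, 143, 155 and 149.6 CPM, 2 sets that overlapped (log2 difference -0.04 (SE 0.055), edgeR Q = 0.580) and lay wholly below day 0. The log2 fold change was -1.26 (SE 0.055) on day 1 and -1.30 (SE 0.054) on day 2. It was back to 307, 334, 295, 280.0 and 302 CPM on day 10, where replicate 2 passed the lowest day 0 library (log2 fold change -0.26 (SE 0.053), Q = 0.000150).

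The sodium-coupled neutral amino acid transporters SLC38A1 (SNAT1; chr12:46183063-46270017, minus strand) and SLC38A2 (SNAT2; chr12:46358188-46372773, minus strand) are neighbours on chromosome 12 and carry glutamine, alanine and other small neutral amino acids. SLC38A1 held 939, 947, 968, 989.8 and 957 CPM on day 0 and 530.5, 543, 567, 549 and 582 CPM on day 2, a modest but complete separation with a log2 fold change of -0.79 (SE 0.054) (edgeR Q = 2.84e-16). Its day means from day 1 to day 8 ran from 554 ± 20.4 to 645 ± 44.1 CPM. Neighbours in the order 6, 1, 8, 4 and 2 were not told apart, with edgeR Q between 0.111 and 0.992. Some days further apart in this order did differ: day 6 lay above days 4 (Q = 0.0135) and 2 (Q = 0.000826), and day 1 above day 2 (Q = 0.0280). Day 10 gave 802, 801, 829, 723 and 828 CPM, with replicate 4 below the others and every library below day 0.

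SLC38A2, which is known to be induced when amino acids are scarce, held 379.6, 337, 374, 348 and 347 CPM on day 0 and 435, 411, 423, 389.7 and 407 CPM on day 1, already separate and higher (log2 fold change 0.21 (SE 0.045), edgeR Q = 0.000120). It dipped on day 2 to 299.5, 320.4, 329, 322 and 317 CPM, all below day 0 (-0.17 (SE 0.046), Q = 0.00187), though without scaling factors the day 2 difference was -0.04 and did not pass the test. On day 10 it held 571, 553, 601, 509 and 571 CPM, a log2 fold change of 0.65 (SE 0.045) with Q = 3.49e-15. The neighbours in its order 10, 6, 4, 8, 1, 0 and 2 that were not told apart were days 10 and 6 (Q = 0.382) and days 4 and 8 (Q = 1.00). The ratio of SLC38A1 to SLC38A2 was lower than on day 0 on each later day, with log2 differences of -0.86, -0.63, -1.12, -1.16, -1.10 and -0.92 in order of day (exact permutation q = 0.00992 each). This shift of the pair remained 1.89-fold on day 10, when SLC38A1 itself was 1.21-fold below day 0.

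**Figure D3:**
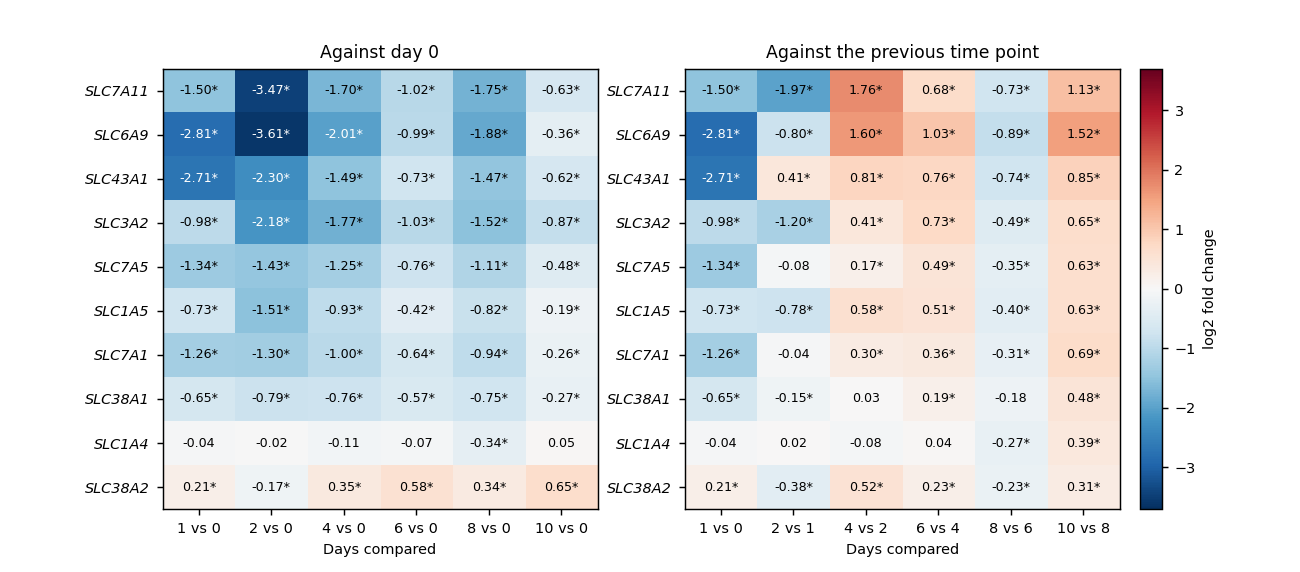
Log2 fold change of each member (rows) against day 0 (left panel) and against the previous time point (right panel), with the 2 days compared on the horizontal axis; blue is lower, red is higher and an asterisk marks edgeR Q of at most 0.05. From day 2 on, the columns of the right panel run mostly red, red, blue and red, with 9 members lower from day 6 to day 8 and 10 higher from day 8 to day 10.

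Step by step from day 2, most members moved in the same direction. For the members that the study had placed in the same cluster of time courses, this was known beforehand. The shares of all entries below are therefore given as a description. Between days 1 and 2, 6 members were lower (SLC7A11, SLC3A2, SLC1A5, SLC6A9, SLC38A1 and SLC38A2), against 19.4% of all entries, and SLC43A1 was higher, against 20.2%. Between days 2 and 4, 8 members rose, all but SLC38A1 and SLC1A4, against 13.9% of all entries, and none fell, against 16.7%. Between days 4 and 6, 9 members rose, all but SLC1A4, against 6.09% of all entries, and none fell, against 5.98%. SLC6A9 and SLC7A11 gained most in these 2 steps, with log2 fold changes of 1.60 (SE 0.14) and 1.76 (SE 0.10) from day 2 to day 4.

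The step from day 6 to day 8 was the quietest of the course over all entries, with 1.53% lower and 1.03% higher. In this step 9 of the 10 members fell and none rose. The change was -0.89 (SE 0.11) on the log2 scale for SLC6A9, -0.74 (SE 0.093) for SLC43A1 and -0.73 (SE 0.086) for SLC7A11. The smaller changes included -0.23 (SE 0.045) for SLC38A2 (edgeR Q = 0.000985) and -0.27 (SE 0.056) for SLC1A4 (Q = 0.00249). SLC38A1, at -0.18 (SE 0.054), did not pass the test (Q = 0.0680). Day 6 libraries held 88.8, 90.2, 89.5, 81.9 and 96.8 CPM of SLC7A11 and day 8 libraries 62.7, 56.6, 50.5, 52.4 and 46.5 CPM. For SLC43A1 the values went from 49.5, 54.4, 54.7, 42.3 and 49.0 CPM to 27.8, 34.8, 27.2, 28.2 and 30.6 CPM. In both genes the 2 days did not overlap, and none of the 9 drops reached a log2 fold change of -1.

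From day 8 to day 10 all 10 members rose, against 5.08% of all entries, and none fell, against 4.97%. This step and the one before it share the same day 8 libraries, so they are not independent of each other. In the comparisons where no member was called in a direction, edgeR's unadjusted P was under 0.05 for 0 members in that direction, and DESeq2 called 0. The median rise was 0.64 on the log2 scale, from 0.31 for SLC38A2 to 1.52 for SLC6A9, while the median of all entries with enough counts was 0.00 to the same precision. With the dip of day 8 skipped, 6 members differed between days 6 and 10 (SLC7A11, SLC1A5, SLC7A1, SLC6A9, SLC7A5 and SLC38A1), each higher on day 10, against 9.37% of all entries in either direction. Between days 4 and 8, 2 members differed, SLC3A2 at 0.25 (SE 0.073) and SLC1A4 at -0.23 (SE 0.056), against 5.12% of all entries. The other 8 members did not pass the test in that comparison.

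Replicates of a day did not vary independently from gene to gene. After each library was expressed as its deviation from the mean of its day, Pearson's r between members over the 35 libraries had a median of 0.378 over 45 pairs. It was highest for SLC1A5 and SLC7A5 (0.916), SLC3A2 and SLC1A5 (0.880) and SLC3A2 and SLC7A5 (0.874), and lowest for SLC38A1 and SLC43A1 (-0.325). Day 8 replicate 2 was the highest library of its day for 9 of the 10 members, and day 0 replicate 3 was the lowest of its day for 6 members. These points share library, depth and day, and no P is given. Over the undivided 35 libraries, where the days dominate, the median was 0.812, and r was highest for SLC7A1 and SLC7A5 (0.979).

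The protein-coding entries most like each member over the 35 libraries, by Pearson's r of log2 CPM among 12182 candidates, are given as a description. SLC6A9 went with PSAT1 of serine synthesis (0.991), KIF21B (0.987) and GPT2 (0.982). SLC1A5 went with the tRNA synthetases GARS (0.983), SARS (0.969) and MARS (0.967). SLC7A11 went with GARS (0.955), the asparagine synthetase ASNS (0.955) and ADM2 (0.952). SLC43A1 went with DNASE2 (0.983), PCK2 (0.982) and CBS (0.980).

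SLC3A2 went with NFE2L1 (0.984), the transcription factor that drives proteasome genes, and with CCPG1 (0.974) and WARS (0.965). SLC7A5 and SLC7A1 had PYCR1 of proline synthesis and GAS7 in common, at 0.979 and 0.975 for SLC7A5 and at 0.967 and 0.976 for SLC7A1. SEL1L (0.961) followed for SLC7A5 and PSAT1 (0.957) for SLC7A1. SLC38A1 went with THAP12 (0.941), HSPA13 (0.937) and SEL1L (0.932). SLC38A2 went less closely with C11orf71 (0.882), WAC (0.876) and DDIT4 (0.874), and SLC1A4 least of the members with RBBP8 (0.735), SLC39A14 (0.721) and SPRYD3 (0.717).

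On day 1, the counts of other genes of amino acid handling can be read against the 25.4% of all entries that were higher and the 27.3% that were lower. Of 33 further cell-surface amino acid transporters, 30 had a count and 9 had enough counts for the low-count filter. Of the 30, 5 (16.7%) were higher and 4 (13.3%) lower than day 0, both below that background. With 9 of the 30 having enough counts, these low shares are no result about the list. The median log2 fold change of the 9 was 0.53, against -1.12 for the members and 0.01 for all entries with enough counts. SLC38A5, a glutamine and histidine transporter, rose to 1.77-fold (log2 fold change 0.83 (SE 0.058), edgeR Q = 5.18e-16), and SLC38A6 rose, with a log2 fold change of 2.75 (SE 0.34) from a mean of 1.52 CPM. SLC6A5 and SLC36A2 were lower, from day 0 means of 0.181 and 0.283 CPM to 0 in every day 1 library. Neither had enough counts for the filter, and the lowest day 0 library of each also held 0. On day 10, 3 of the 30 (10%) were higher and 1 (3.33%) lower, against 16.1% and 15.8% of all entries, again no result about the list. SLC16A10, a carrier of aromatic amino acids, was higher by 0.56 (SE 0.076), the taurine transporter SLC6A6 by 0.30 (SE 0.062) and SLC38A5 by 0.22 (SE 0.058). The lower one was SLC3A1, at -1.52 (SE 0.55) from a day 0 mean of 2.09 CPM, without enough counts for the filter.

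Of the 10 lysosomal and vesicular transporters, 6 (60%) were higher and 2 (20%) lower on day 1, the lower share being under the background, with a median log2 fold change of 0.58 over the 9 with enough counts. SLC36A4 rose by 1.69 (SE 0.12) and SLC38A7, which exports glutamine from lysosomes, by 1.28 (SE 0.11), while SLC15A3 fell, at -2.79 (SE 0.19), and the cystine exporter CTNS at -0.21 (SE 0.069). By day 4 none was higher by edgeR (0 also at an unadjusted P under 0.05 and 0 by DESeq2), against 19.0% of all entries. On that day 4 were lower, against 20.1% of all entries. Of the 11 mitochondrial amino acid carriers, 3 were higher and 3 lower on day 1 (27.3% each), near the background, with a median of 0.04 over the 9 with enough counts, among them the ornithine carrier SLC25A15 at 0.82 (SE 0.20) and SLC25A29 at -2.76 (SE 0.30). SLC25A18 was higher as well, from 0 in every day 0 library to a mean of 0.266 CPM. It did not have enough counts for the filter, and 3 of its day 1 libraries lay above day 0.

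In the step from day 6 to day 8, where 1.53% of all entries were lower and 1.03% higher, none of the 30 other cell-surface, 10 lysosomal and 11 mitochondrial transcripts was called in either direction by edgeR. With 27 of these 51 having enough counts, 0 calls is near that background and is no result about these lists. At an unadjusted P under 0.05 these lists held 3, 1 and 0 higher and 0, 1 and 1 lower transcripts, and DESeq2 called 1, a cell-surface transporter that was higher. Of 12 genes of the integrated stress response, the pathway that leads to ATF4, 8 were lower and none higher in the same step. On day 1, 10 of these 12 were lower than on day 0 and 1 was higher, against 27.3% and 25.4% of all entries, with a median log2 fold change of -1.60, and with ATF3 at -3.05 (SE 0.13), CHAC1 at -2.87 (SE 0.20) and DDIT4 at 0.37 (SE 0.15). On day 10 the stress regulators ATF3 and ATF5 were still at -2.73 (SE 0.13) and -2.02 (SE 0.073), while DDIT4 was at 1.36 (SE 0.15) and EIF2AK4 at -0.21 (SE 0.056). From day 8 to day 10, 7 of the 12 rose and 1 fell, against 5.08% and 4.97% of all entries, with a median log2 fold change of 0.34 against 0.64 for the members.

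**Figure D4:**
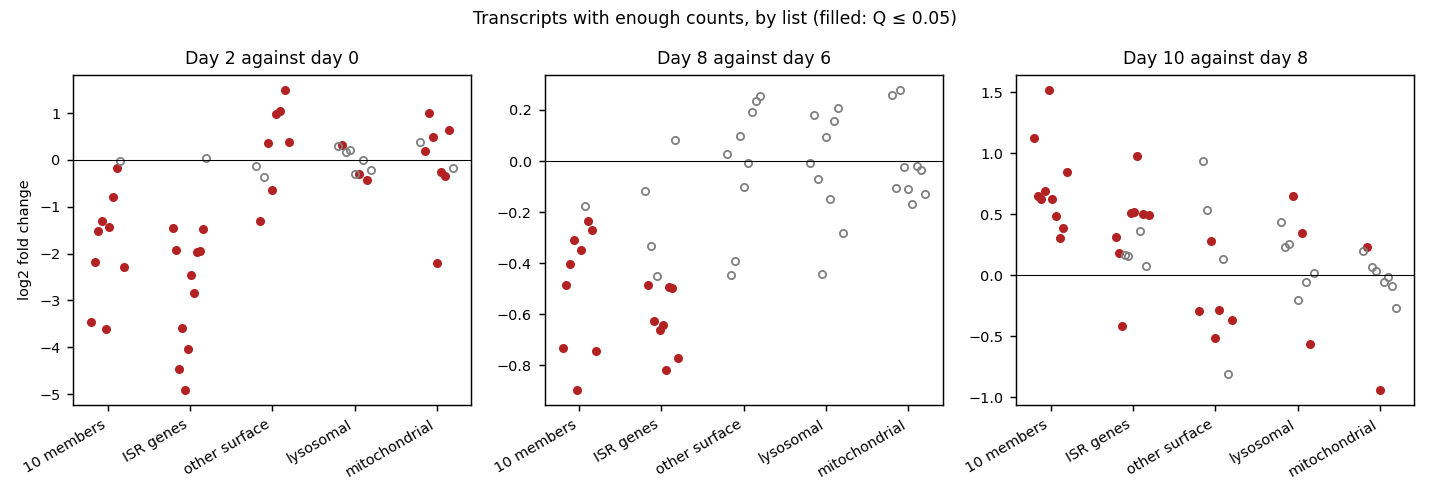
Log2 fold change (vertical axis, with its own range in each panel) of the transcripts with enough counts in 5 lists (horizontal axis), for day 2 against day 0, day 8 against day 6 and day 10 against day 8. Each point is a gene and filled points passed edgeR at Q of at most 0.05; in the middle panel the filled points are 9 members and 8 genes of the integrated stress response.

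The count table also lists other transcript biotypes of the same symbols, which the choice of members did not use. Such entries averaged at least 10 counts per library for SLC3A2, SLC38A1, SLC38A2, SLC1A4 and SLC43A1. The protein-coding share of the symbol's counts was 88.7% ± 1.14 for SLC3A2, 99.7% ± 0.0827 for SLC38A1, 91.1% ± 1.99 for SLC38A2, 93.9% ± 0.711 for SLC1A4 and 98.1% ± 0.935 for SLC43A1 on day 0 (SD, n = 5). None of the 30 comparisons with day 0 passed an exact permutation test after adjustment, and 5 had an unadjusted exact permutation p under 0.05. The smallest exact permutation p, 0.00794 with q = 0.0794, went to SLC1A4 on day 1 (97.3% ± 0.780) and to SLC43A1 on day 6 (94.2% ± 1.66) and day 8 (92.4% ± 1.91), where the libraries of the 2 days did not overlap. The other biotypes of SLC43A1 averaged 11.2 counts per library, so a few counts move that share.

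Counted against retained introns only, the share of SLC3A2 was 95.7% ± 1.09 on day 0 and 91.7% ± 2.31 on day 8, and it was lower on days 4, 6 and 8 (exact permutation q = 0.0476 each). For SLC38A2 it was 97.4% ± 0.573 on day 0 and higher on days 6 and 8, at 98.7% ± 0.336 and 98.9% ± 0.410 (exact permutation q = 0.0476 each). SLC1A4 went from 95.3% to 98.0% on day 1 with the same q. These shares rest on estimated counts of overlapping transcripts, which share sequence.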

How the data were processed

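RNA sequencing of 35 RPMI-8226 libraries (5 per day on 7 days) was analysed from the deposited table, which holds estimated counts for 84647 entries, each a symbol within a transcript biotype. Per the study's methods and the labels, the authors quantified reads with Kallisto 0.44.0 against GENCODE release 28 (GRCh38.p12), with libraries that keep strand. Their values were adjusted for GC content and transcript length before the deposited counts were summed, so they are not raw reads. The strand setting of the quantification is not given in the sources used here. The authors' own tests used DESeq2 1.25.8 in R 3.5.0. Labels give no batch or date, and every count column was matched to a sample.

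Protein-coding entries were tested with edgeR 4.0.16 in R 4.3.3 on the counts, which are whole numbers as deposited, with TMM factors (0.929 to 1.08), day as the factor, all 35 libraries in the quasi-likelihood fit and Benjamini-Hochberg adjustment over 17999 entries. A further 1666 entries had no count. The edgeR step and the exact permutation tests were checked on simulated data. Ratios used log2 of counts plus 1, and ratios and shares were compared by two-sided exact permutation tests in Python 3.11.15 (252 assignments). Total counts of 6519392 to 10962890 per library set the precision, and the P values measure the spread between subcultures, which may be technical. Libraries of the same day differed by 2.52 to 9.64 times the counting noise (chi-square per degree of freedom), so none was merged. Positions are those of GENCODE release 44, a later release on the same build.

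The named genes were the 10 members, the 3 entries most like each of them, and the 2 highest and 2 lowest passing entries of each list on days 1 and 10, described in the text where they bear on the members. The members and lists were chosen with earlier results of these data known. Alternatives covered DESeq2 1.42.0, RLE or no scaling factors, a low-count filter, a fit on the 2 days alone, a replicate block, a fold cutoff, other pseudocounts and each library left out. For ratios and shares, all libraries of a replicate number were left out together in place of single libraries.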

Additional observations from a re-analysis of the deposited data

Results flagged for a closer look

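Within the 5 libraries of a day, 70 groups of member values were examined for a library far from the rest, and 4 were found, where chance alone gives about 1 in 20. SLC3A2 on day 1 stood at 441 CPM in replicate 4, against 368 to 379 CPM in the other libraries of that day. SLC1A5 on day 2 stood at 232 CPM in replicate 2, against 207 to 214 CPM. SLC38A1 on day 10 stood at 723 CPM in replicate 4, the lowest, against 801 to 829 CPM. SLC43A1 on day 0 stood at 95.1 CPM in replicate 1, against 76.4 to 80.9 CPM. Each of these members kept its direction and its call against day 0 on these days without that library, and SLC43A1 did so on all 6 later days.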

How the results depend on the processing

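Of the alternatives tried, DESeq2, RLE factors, the low-count filter, a fit on the 2 days alone, no scaling factors and other pseudocounts each left every count of members within 1.5 times its value. With a log2 fold change above 1 added, 5, 5, 2, 5 and 0 members were lower than day 0 on days 1, 4, 6, 8 and 10 and 0 were higher on days 1, 4, 6, 8 and 10. In the steps this left 2 lower and 0 higher on day 2, 2 higher on day 4, 1 higher on day 6, 0 lower on day 8 and 2 higher on day 10. With medians in place of means each of the 5 ratios differed on 0 days, where many assignments tie. With retained introns only, 1, 1, 2 and 2 shares differed on days 1, 4, 6 and 8. Without scaling factors the median of all entries shifted by 0.12, 0.13 and 0.11 on days 1, 2 and 4, and SLC1A4 turned to 0.074, 0.11 and 0.0067. In a fit on days 0 and 2 alone SLC1A4 was at 0.011 on day 2. SLC1A5 on day 10 was at -0.13 without factors and did not pass.

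With each library left out in turn, members lower than day 0 numbered 8 to 9 on day 4 and 7 to 8 on day 10, and the other counts against day 0 stayed as given. In the steps, 5 to 6 were lower on day 2, 7 to 8 higher on day 4, 8 to 9 higher on day 6 and 9 to 10 lower on day 8. SLC1A4 on day 4 passed the test without day 0 replicate 3 or day 4 replicate 3, at -0.15 in either case. For the ratios, all libraries of a replicate number were instead left out together, each number in turn. The ratio of SLC7A11 to SLC3A2 then differed on 2 to 3 days and that of SLC7A5 to SLC7A11 on 4 to 5.

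Replicate numbers were not taken to pair the samples, and whether they do was not settled. Over 105 pairs of libraries with the same number, deviations from the day means had a median r of 0.00119 (-0.123 to 0.136). Of these, 1 passed 0.1, and the median over pairs with other numbers was -0.000655. Yet 14 of 35 libraries were closest to their own number, above the equal share of 7 over the 5 numbers. The permutation tests did not use replicate numbers to pair libraries. With a replicate block, 8, 9, 8, 8, 9 and 8 members were lower than day 0, and no call of a member changed.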
